A study of Homo sapiens with 6 samples.

Results

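The 9 bitter taste receptor genes of chromosome 7 were looked up in 4 lists of ChIP-seq peaks from ACHN, a human renal carcinoma cell line. They are TAS2R3, TAS2R4, TAS2R5, TAS2R38, TAS2R39, TAS2R40, TAS2R60 and TAS2R41, which lie between 141 and 144 Mb, and TAS2R16, which lies nearer the centromere. They are 9 of 20033 protein-coding genes with a position in the RefSeq table used here, and the table places all 9 on chromosome 7. The genes were selected on the positions of peaks in these same 4 lists, so their values are a description and none was tested. The series asks how the NEXT complex, which passes short-lived nuclear RNAs to the RNA exosome, relates to H3K27me3, a repressive mark on histone H3. Cells labelled ZCCHC8-WT (WT) and ZCCHC8-KO (KO), where ZCCHC8 is the scaffold protein of NEXT, were profiled for H3K27me3 and for EZH2, the enzyme that writes this mark within Polycomb repressive complex 2. Each antibody and genotype had 1 library with a peak list, and each genotype had 1 input library, the control of both of its lists. The sample titles call the WT cells Ctrl and the KO cells sgZ8, without saying what the Ctrl cells received. Beyond these names the labels give no other allele or agent, and do not say whether KO cells were 1 clone or a pool. Peaks do not show whether ZCCHC8 protein was lost.

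Bitter taste receptors are G protein-coupled receptors of the TAS2R family, each encoded by a short gene whose coding sequence is not interrupted by introns. In taste cells of the tongue they act through the G protein gustducin, phospholipase C, release of calcium and the channel TRPM5, and they are also found in airway and gut cells. H3K27me3 is typically laid down over genes that a cell type keeps silent, in narrow domains at CpG-rich promoters or in broad ones over gene-poor chromatin.

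The lists held 93095 H3K27me3 peaks in WT, 69840 in KO, 30734 EZH2 peaks in WT and 19566 in KO, with read depth not given in the sources used here. Of each list, chromosome 7 held 13.2%, 7.01%, 12.9% and 7.73% in the same order, a smaller share in KO than in WT for both antibodies. The authors' score for each peak started at 5 in both WT lists and at 4 in both KO lists. Part of any difference at the receptor genes may belong to the chromosome or to the lists, which cannot be told apart with 1 library per group. Among 10 genes fixed to look at the renal label, PAX8, PAX2, LHX1, KRT18, VIM, MET, EPCAM and CD24 had no peak of either antibody within the gene or 5 kb around it. KRT8 had 1 EZH2 peak in WT. CDH6 had 8 H3K27me3 peaks in each genotype, with 5 EZH2 peaks in WT and 3 in KO. Peak lists hold no expression, so the label was not checked further.

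The receptor genes fell into 3 kinds. TAS2R3, TAS2R4 and TAS2R5 had no peak of any list within 5 kb. TAS2R39, TAS2R40, TAS2R60 and TAS2R41 had more H3K27me3 coverage in WT than in KO, and TAS2R16 did too, by a smaller amount. TAS2R38 had more in KO. A gene is called marked here when at least 1 peak overlaps the gene or 5 kb on either side by at least 1 bp, a window of 10924 to 15018 bp for these genes. H3K27me3 marked 6 of the 9 in WT and 3 in KO, where 26.0% and 23.1% of all protein-coding genes were marked. That order depended on the window, since with 1 kb on either side H3K27me3 marked 2 in WT and 3 in KO. For EZH2 the numbers were 2 in WT and 1 in KO, beside 26.9% and 18.3% of all genes. All genes include long ones with wider windows. Of the 1255 protein-coding genes under 2 kb, H3K27me3 marked 18.8% in WT and 16.2% in KO, and EZH2 8.29% and 5.26%. The median covered share of the 9 windows was 2.85% in WT and 0 in KO for H3K27me3, and the median over all genes was 0 in both.

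**Figure D1:**
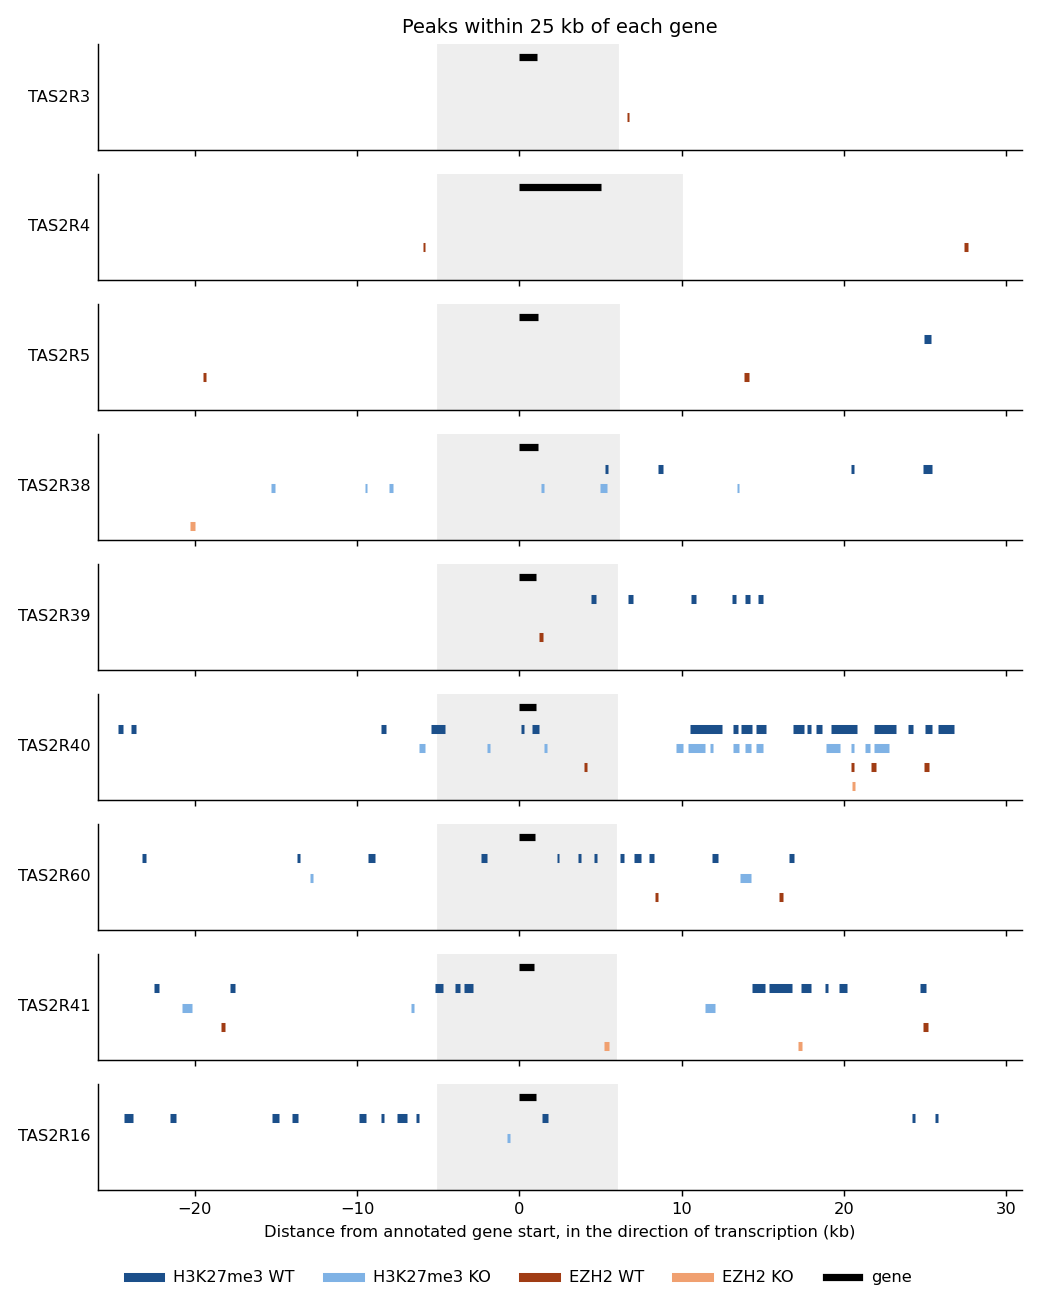
Peaks within 25 kb of each bitter taste receptor gene, by distance in kb from the annotated start in the direction of transcription, with 1 row of bars per library, the gene in black and the window of gene plus 5 kb shaded. The windows of TAS2R3, TAS2R4 and TAS2R5 are empty, and 12 H3K27me3 peaks of WT and 10 of KO lie downstream of TAS2R40 beyond its window.

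TAS2R41 and TAS2R60, neighbours 33.5 kb apart, had H3K27me3 in WT and none in KO. TAS2R41 (chr7:143477873-143478796, plus strand), a receptor that responds to the antibiotic chloramphenicol, had the highest share of the 9, with peaks over 10.7% of its window in WT. Its 3 WT peaks all lay upstream, 4739, 3658 and 2837 bp from the gene, with widths of 494, 322 and 586 bp and scores of 8, 7 and 10. No KO peak of H3K27me3 lay nearer to it than 6522 bp. TAS2R60 (chr7:143443453-143444409, plus strand), for which few activating compounds are known, had 8.84% covered in WT and none in KO. One of its 4 WT peaks lay upstream, at 1975 bp, and 3 downstream at 1332, 2641 and 3665 bp, with scores from 6 to 9. Its nearest KO peak was 12.7 kb away. In the 85.3 kb that span both genes and 25 kb on each side, H3K27me3 had 21 peaks in WT and 4 in KO, covering 10.2% and 1.97%, and none within 25 kb of either gene overlapped a peak of the other genotype. The pseudogene TAS2R62P, next to TAS2R60, had 2 WT peaks in its window, of which 1 is the upstream peak of TAS2R60 given above, and none in KO. No value here says more than that these stretches were listed in 1 library and not in another.

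TAS2R40 (chr7:143222037-143223079, plus strand), a receptor for bitter compounds of hops, was the only one of the 9 with H3K27me3 peaks over the gene itself. In WT, 9.28% of its window was covered by 3 peaks. One of 219 bp (chr7:143222117-143222335) lay inside the gene, one of 405 bp (chr7:143222827-143223231) ran over its end, and one of 855 bp ended 4600 bp upstream, with scores of 9, 9 and 12. In KO, 3.33% was covered by 2 peaks of 185 and 183 bp, with scores of 5 and 6, which lay 1826 bp upstream and 494 bp downstream. Neither overlapped a WT peak, so the gene counts as marked in both genotypes by different stretches. TAS2R39 (chr7:143183419-143184435, plus strand), a broadly tuned receptor for tea catechins among others, lies 37.6 kb to the left. It had 2.85% covered in WT, by 1 peak of 314 bp with a score of 9 at 3395 bp downstream, and no KO peak within 31.4 kb.

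A block of H3K27me3 on the far side of TAS2R40 was listed in both genotypes. Beyond the window and up to 25 kb downstream lay 12 WT peaks and 10 KO peaks, against 3 and 1 on the upstream side. Of the 18 WT peaks within 25 kb, 7 overlapped a KO peak, all of them in this block, and 8 of the 13 KO peaks overlapped a WT peak. The widest WT peak spanned 1940 bp (chr7:143232556-143234495, score 12) and the widest KO peak 1065 bp (chr7:143232429-143233493, score 7), and these shared 938 bp. All 3 EZH2 peaks of WT in this block and the 1 of KO overlapped H3K27me3 of the same genotype. Among the surroundings of the 9 genes, this block and 1 peak near TAS2R38 were the places where H3K27me3 peaks of WT and KO overlapped within 25 kb.

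TAS2R38 (chr7:141972631-141973773, minus strand), the receptor for phenylthiocarbamide known for inherited differences in tasting, had more H3K27me3 coverage in KO, 1.74% in WT and 5.15% in KO. The WT peak was 194 bp wide with a score of 6, and a KO peak of 398 bp with the same score overlapped it by 122 bp. A second KO peak of 176 bp lay 201 bp downstream of the gene, with a score of 4, below the lowest score of the WT list. Within 25 kb there were 4 WT peaks and 6 KO peaks, of which 1 in each list was shared. Over the gene and 25 kb on each side H3K27me3 covered 2.32% in WT and 2.60% in KO, so the contrast was mainly within the window. No EZH2 peak was nearer than 40.8 kb in WT and 20.0 kb in KO.

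TAS2R16 (chr7:122994704-122995700, minus strand), the receptor for salicin and other beta-glucosides, lies apart from the others. Its window had 3.34% covered in WT, by a peak of 367 bp 416 bp downstream, and 1.77% in KO, by a peak of 195 bp 586 bp upstream. The wider surroundings differed more, with 11 WT peaks and 1 KO peak within 25 kb, and 8 of the WT peaks upstream beyond the window. EZH2 had no peak within 66.1 kb in WT or 101 kb in KO.

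TAS2R3 (chr7:141764097-141765197), TAS2R4 (chr7:141776674-141781691) and TAS2R5 (chr7:141790217-141791367), all on the plus strand, form the tightest group, 11.5 and 8.53 kb apart. TAS2R3 is known to respond to chloroquine, TAS2R4 to quinine and denatonium, and TAS2R5 to phenanthroline. The nearest H3K27me3 peak in WT was 33.0 kb from TAS2R3, 33.4 kb from TAS2R4 and 23.8 kb from TAS2R5, and in KO 30.7, 43.2 and 56.8 kb. A 162-bp EZH2 peak of WT with the lowest score of its list, 5, lay between TAS2R3 and TAS2R4, 5512 and 5804 bp from them, just outside both windows. KO had no EZH2 peak for 670 kb around the 3 genes (chr7:141250142-141920119), the longest run without one in the stretch. That list was sparse, with 50 peaks in the stretch and none in 13 of 30 bins of 100 kb. Longest empty runs in the other lists were 386 kb (EZH2 in WT), 498 kb (H3K27me3 in WT) and 703 kb (H3K27me3 in KO). None of those runs held a receptor gene. The pseudogene TAS2R6P, between TAS2R4 and TAS2R5, had no peak in its window either. The windows of TAS2R4 and TAS2R5 overlap, so they are not separate observations.

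By H3K27me3 covered share in WT the order was TAS2R41, TAS2R40, TAS2R60, TAS2R16, TAS2R39 and TAS2R38, with the other 3 at 0. In KO it was TAS2R38, TAS2R40 and TAS2R16, with the other 6 at 0. With 1 library per group the spread of these shares is unknown, so neighbours in either order cannot be told apart. Coverage was lower in KO at 5 of the 9 genes and higher at 1, where 18.2% and 12.8% of all genes were lower and higher. A peak was listed in WT only at 3 genes (7.88% of all), in KO only at none (5.03% of all), and in both at 3 (18.1% of all). The genes were chosen with this contrast known, so nothing is read from these shares. Of 13 WT peaks in the windows 1 overlapped a KO peak, and of 5 KO peaks 1 overlapped a WT peak. On the other chromosomes 16.4% of WT peaks and 20.5% of KO peaks were shared. On the receptors' own chromosome the share of KO peaks was higher, 34.4% in the stretch and 33.3% on the rest of it. For WT peaks the shares there were 16.7% and 12.4%.

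**Figure D2:**
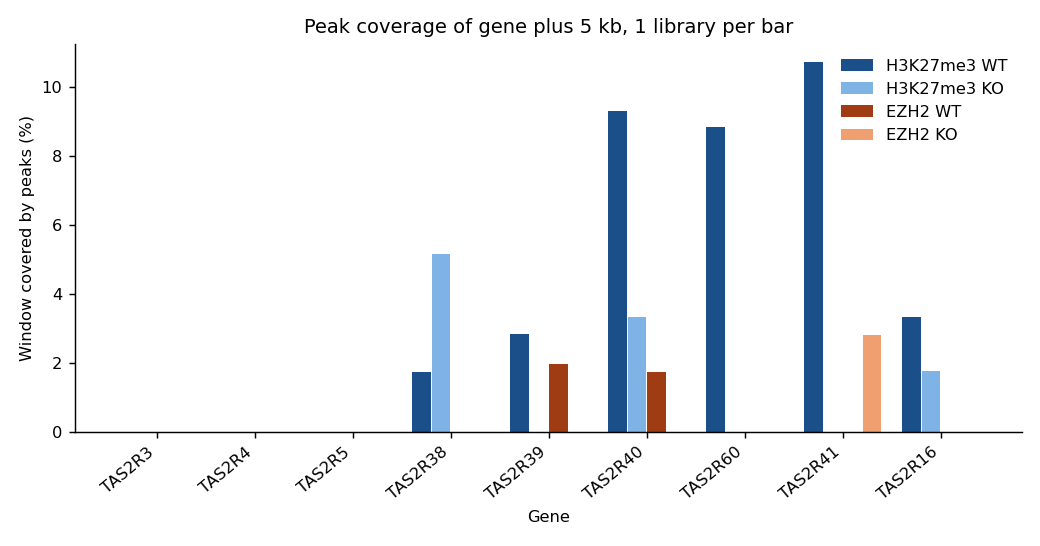
Share of each gene's window (gene plus 5 kb, in percent) covered by peaks, 1 bar per library and no error bars because each group had 1 library. H3K27me3 in WT reached 8.84% to 10.7% at TAS2R40, TAS2R60 and TAS2R41, and TAS2R38 was the gene with a higher bar in KO.

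The 13 WT peaks of H3K27me3 had scores of 6 to 12 with a median of 9, and 10 of them had 7 or more, as did 69.8% of the whole WT list. The 5 KO peaks had scores of 4 to 6, and none reached 7, which 28.6% of the whole KO list did. Widths ran from 171 to 855 bp in WT and from 176 to 398 bp in KO. The score is not defined in the sources used here and may not mean the same in both lists.

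EZH2 peaks lay in the windows of 3 receptor genes. TAS2R39 had 1 WT peak of 216 bp, 191 bp past its end, covering 1.96% of the window. TAS2R40 had 1 WT peak of 192 bp, 2954 bp downstream, covering 1.74%. Neither gene had an EZH2 peak in KO. TAS2R41 had 1 peak of 308 bp in KO, 4262 bp downstream, covering 2.82%, and none in WT. EZH2 was thus listed in WT only at 2 genes (14.3% of all genes) and in KO only at 1 (5.75% of all). None of these 3 peaks overlapped an H3K27me3 peak of its genotype, as 13.0% of WT and 19.2% of KO EZH2 peaks did on the other chromosomes. None overlapped an EZH2 peak of the other genotype, as 5.29% and 7.74% did there, so nothing is read from 3 peaks.

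The sequence before the annotated starts is shown for TAS2R41, which had the highest H3K27me3 share in WT, for TAS2R3, the first of the 3 genes without a peak, and for TAS2R40, the gene with peaks over its body. Each is 300 bases from RefSeq (GRCh38.p14), 250 before the start and 50 from it on, on the plus strand and 5′ to 3′. Capitals mark ATTTGCAT, the octamer that POU domain factors bind.
TAS2R41 (chr7:143477623-143477922): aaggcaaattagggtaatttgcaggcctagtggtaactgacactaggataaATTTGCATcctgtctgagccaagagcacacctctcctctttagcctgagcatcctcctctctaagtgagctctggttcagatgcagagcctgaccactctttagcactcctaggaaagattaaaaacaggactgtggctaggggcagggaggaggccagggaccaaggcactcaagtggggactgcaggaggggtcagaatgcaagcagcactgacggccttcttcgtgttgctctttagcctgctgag
TAS2R3 (chr7:141763847-141764146): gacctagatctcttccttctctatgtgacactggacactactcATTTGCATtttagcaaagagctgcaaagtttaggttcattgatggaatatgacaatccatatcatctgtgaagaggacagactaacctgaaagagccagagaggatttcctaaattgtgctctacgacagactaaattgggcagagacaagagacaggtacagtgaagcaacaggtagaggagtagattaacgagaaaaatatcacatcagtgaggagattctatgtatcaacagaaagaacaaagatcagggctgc
TAS2R40 (chr7:143221787-143222086): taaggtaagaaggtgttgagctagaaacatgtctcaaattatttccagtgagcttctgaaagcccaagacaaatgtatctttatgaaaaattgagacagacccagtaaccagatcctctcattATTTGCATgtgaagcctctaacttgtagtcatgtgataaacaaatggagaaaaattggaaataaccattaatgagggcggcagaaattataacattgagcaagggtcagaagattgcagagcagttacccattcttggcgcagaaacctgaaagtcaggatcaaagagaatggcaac
In TAS2R39, TAS2R60 and TAS2R41 the annotated start falls on ATG, the letters of a start codon. Their 300 bases may flank the coding sequence without holding the start of transcription. All 9 stretches are called promoters here, and they were poor in CpG. All 9 matched the RefSeq table, with 0 to 5 CpG in 300 bases and a median C+G content of 41.0%, against a median of 22 CpG and 62.7% over 15842 protein-coding promoters. No peak of any list overlapped any of the 9 promoters, and over all promoters 0.619% held an H3K27me3 peak in WT and 0.473% in KO. GCGC was in 4 of 9 (71.3% of all promoters), CGCG in none (65.2%) and CATTCC in none (11.7%), read on both strands. The octamer was looked for after its sequence was noticed in several of them. It was in 6 of 9, those of TAS2R3, TAS2R5, TAS2R39, TAS2R40, TAS2R60 and TAS2R41, on either strand, against 1.70% of all promoters. The set of all promoters had the higher C+G content given above. Promoters matched for C+G were not counted, so nothing is read from this contrast. Of the 10 promoters available for the bitter receptors of chromosome 12, 4 held the octamer. In the 3 sequences printed it begins 199 bases before the annotated start of TAS2R41, 207 before that of TAS2R3 and 127 before that of TAS2R40. Of the 6 genes that hold it, TAS2R39, TAS2R40, TAS2R60 and TAS2R41 were marked by H3K27me3 in WT and TAS2R3 and TAS2R5 were not. Of the 3 without it, TAS2R38 and TAS2R16 were marked and TAS2R4 was not. These are matches of letters and not evidence of binding.

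The stretch from 141 to 144 Mb, with 8 of the 9 genes, had fewer peaks in KO for both antibodies. H3K27me3 had 365 peaks in WT covering 155 kb and 195 in KO covering 66.8 kb, a KO/WT ratio of 0.534 for number, with an exact 95% interval of 0.447 to 0.637 that covers counting error only. The rest of chromosome 7 had a ratio of 0.395 and the other chromosomes 0.803. EZH2 had 123 and 50 peaks, a ratio of 0.407 (0.287 to 0.569), with 0.381 on the rest of the chromosome and 0.674 elsewhere. H3K27me3 peaks were fewer in KO in 22 of 30 bins of 100 kb, more numerous in 2 and equal in 6. The bin of TAS2R60 and TAS2R41 had 24 WT and 5 KO peaks, that of TAS2R40 21 and 15, that of TAS2R39 8 and 1, and that of TAS2R38 9 and 7. The bin of TAS2R3, TAS2R4 and TAS2R5 had 16 and 14 H3K27me3 peaks, and 13 and no EZH2 peaks, although the receptor windows in it were empty. WEE2, a kinase gene of the oocyte in the same bin, had 16 and 14 H3K27me3 peaks and 12 and no EZH2 peaks in its own window.

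**Figure D3:**
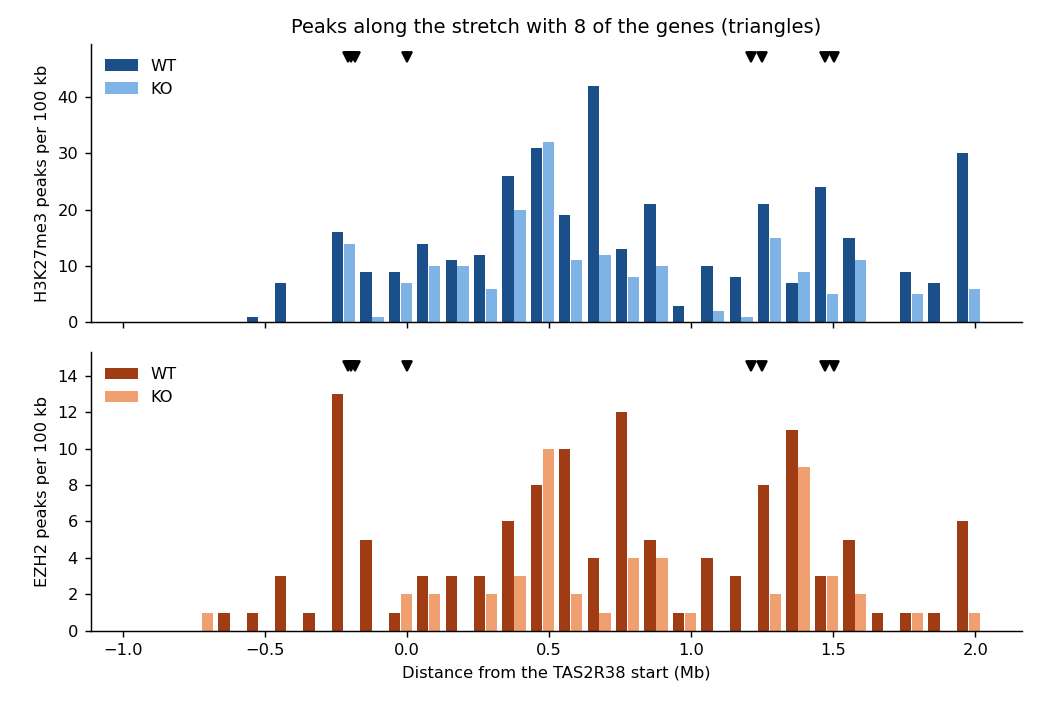
Peaks per 100 kb along the stretch in WT and KO for H3K27me3 (top) and EZH2 (bottom), by distance in Mb from the TAS2R38 start, with triangles at the 8 receptor genes. H3K27me3 is highest in WT, at 42 peaks in a bin, among the gene segments of the T cell receptor beta locus between the receptor groups.

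Between the receptor groups lies the T cell receptor beta locus, whose 79 annotated segments span 514 kb. It held 134 H3K27me3 peaks in WT and 86 in KO, and 40 and 23 EZH2 peaks. Its segments have close copies, so the placing of reads there is uncertain. Of the WT H3K27me3 peaks of the whole stretch, 16.7% (13.0 to 20.9) overlapped a KO peak, against 12.4% (11.9 to 13.1) on the rest of chromosome 7 and 16.4% (16.1 to 16.6) on the other chromosomes. For EZH2 it was 10.6% (5.75 to 17.4), against 3.85% (3.27 to 4.51) and 5.29% (5.02 to 5.56). EZH2 peaks of the stretch overlapped H3K27me3 in 33.3% of cases in WT (25.1 to 42.4) and 30.0% in KO (17.9 to 44.6), compared with 20.2% and 16.5% on the rest of the chromosome. On the other chromosomes the share was 13.0% in WT and 19.2% in KO, the opposite order to the rest of chromosome 7. In the stretch the WT and KO intervals overlapped, so no order is read there. All these intervals are exact 95% Clopper-Pearson intervals, which cover counting error only and hold no spread between libraries. They count each peak as separate, although 134 of the 365 WT H3K27me3 peaks of the stretch lay in the T cell receptor beta locus, so they may be too narrow.

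Of 35 other protein-coding genes there, H3K27me3 marked 22 in WT and 15 in KO (62.9% and 42.9%), against 66.7% and 33.3% of the receptors. EZH2 marked 48.6% and 28.6% of them. The 3 with the largest H3K27me3 deficit in KO were the olfactory receptor gene OR2F1 (13.9% and none), WEE2 (32.0% and 20.5%) and CTAGE6 (12.1% and 1.66%), which were also the 3 highest in WT. CTAGE15 (3.28% and 5.80%) and the trypsinogen genes PRSS2 (none and 1.32%) and PRSS1 (4.43% and 5.36%) had the largest excesses. Reads of CTAGE and PRSS genes can be shared with close copies, which makes these values uncertain. EZH2 was lowest in KO against WT at WEE2 (14.1% and none), PRSS1 (4.02% and none) and PRSS37 (2.75% and none). Its largest excesses were at PRSS2 (none and 1.87%), OR2F1 (0.861% and 2.62%) and OR9A4 (none and 1.50%), and FAM131B was high in both genotypes (8.45% and 9.60%).

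**Figure D4:**
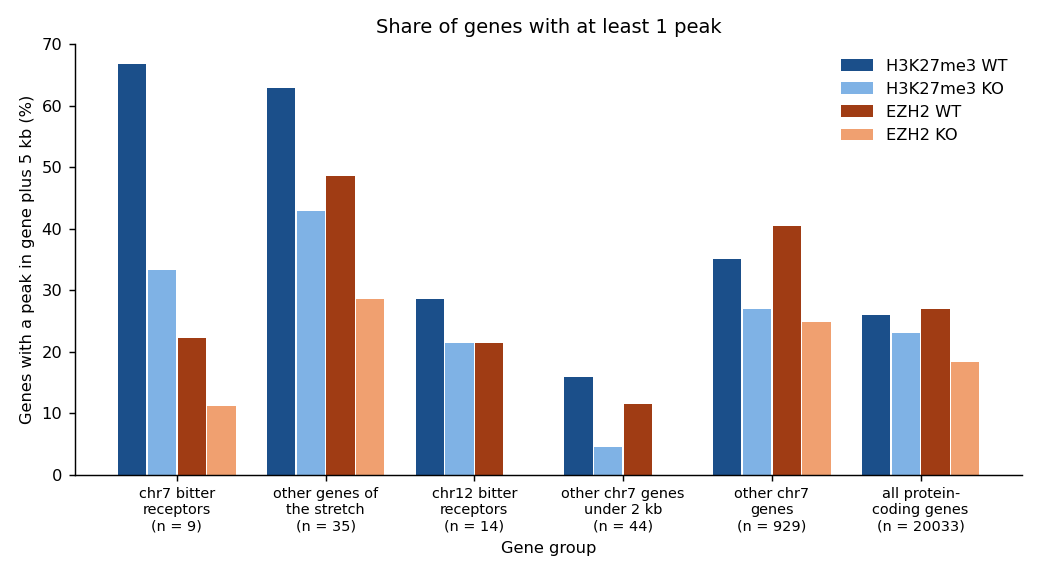
Share of genes with at least 1 peak in gene plus 5 kb (percent), by gene group and library, with the number of genes under each group. The chromosome 7 bitter receptors (66.7% for H3K27me3 in WT) stand beside the other genes of their stretch (62.9%) and above the chromosome 12 bitter receptors (28.6%), but groups differ in gene length and none was tested.

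Of 44 other protein-coding genes of chromosome 7 under 2 kb, which have windows of similar size, H3K27me3 marked 7 in WT and 2 in KO (15.9% and 4.55%). EZH2 marked 5 of these 44 in WT and 0 in KO (11.4% and 0). Among the 14 bitter receptor genes of chromosome 12 H3K27me3 marked 4 in WT and 3 in KO (28.6% and 21.4%). The shares of all protein-coding genes were 26.0% and 23.1%, near those of the chromosome 12 receptors. The covered share of TAS2R9 was 13.6% in WT and 0 in KO, with 13.1% and 1.05% at TAS2R8, 12.6% and 11.2% at TAS2R7, and 4.19% and 4.13% at TAS2R10, 4 genes that lie side by side. The windows of TAS2R7, TAS2R8 and TAS2R9 overlap and share peaks, so these are not separate observations. The other 10 had no H3K27me3 peak in either genotype. In WT, 1 EZH2 peak lay in the windows of both TAS2R8 and TAS2R9 and 1 in that of TAS2R50, and KO had none. TAS2R1, on chromosome 5, whose annotated gene is much longer, had 11 H3K27me3 peaks in WT and none in KO, and 3 and 1 EZH2 peaks. The pseudogene TAS2R2 of chromosome 7 had 1 H3K27me3 peak and 1 EZH2 peak in WT and none in KO.

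Among 15 taste transduction genes, H3K27me3 marked 5 in WT and 4 in KO (33.3% and 26.7%, against 26.0% and 23.1% of all genes). EZH2 marked 5 and 3 (33.3% and 20.0%, against 26.9% and 18.3% of all genes). These shares are near those of all genes, so nothing is read from the counts. POU2F3, the POU factor that specifies sweet, umami and bitter taste cells and tuft cells, had 9 H3K27me3 peaks in WT (2.30% of its window) and 12 in KO (4.60%), with 6 and 4 EZH2 peaks. TAS1R2, a sweet receptor subunit, had 1.72% and 2.79% covered by H3K27me3. GNAT3, the gustducin alpha subunit on chromosome 7, had 1 EZH2 peak in WT and 1 H3K27me3 peak in KO. EZH2 was also listed at TAS1R1, in KO only, and in WT at SCN2A, CALCA and PLCB2, of which SCN2A also had 1 peak in KO. ITPR3, CALHM1, CALHM3, TAS1R3, GNB3, GNG13 and TRPM4 had no peak of either antibody, and TRPM5 had 1 H3K27me3 peak in KO.

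Over the 4 libraries, the mean covered shares of the 9 genes were 4.08%, 1.14%, 0.411% and 0.313% for H3K27me3 in WT and KO and EZH2 in WT and KO. The genes nearest to that profile by Euclidean distance, with no window touching a receptor's, were NXPH1 (0.309 points away), PNPLA1 (0.396), MYO7B (0.402), ABHD12B (0.415) and SLFN5 (0.468). NXPH1, on chromosome 7, had 3.92% and 1.05% for H3K27me3. The likeness rests on 4 values and on a mean that no single receptor has.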

How the data were processed

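ACHN chromatin was precipitated and sequenced in 4 libraries, whose deposited peak lists were used; 2 further libraries are the inputs. The titles gave the groups. Per the submitters' processing notes, cutadapt 1.9.3 and Bowtie2 2.2.4 were used with hg38; the sources used here do not give the peak caller, and 1e-3 stands in the peak names. Each deposited list gave a peak's length in bp, which fits 1-based coordinates with both ends included, and the authors' score per peak, which no header defines and which was used only to describe or filter peaks. The deposited lists held 211961 lines for H3K27me3 in WT and 151474 in KO, and 71635 and 41215 for EZH2. Identical lines were removed.

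Gene positions came from RefSeq (GRCh38.p14), in which a few genes may have positions on alternate sequences. Overlaps and covered lengths came from Python 3.11.15 with pandas 2.3.3, NumPy 2.4.6 and SciPy 1.17.1, and plots from matplotlib 3.10.9; the routines were tested on simulated data, where 500 of 500 windows were recovered. The members and lists were chosen with earlier results of these data known. Named genes were the 9 receptors, for each antibody the 3 stretch genes with the largest deficit, excess and WT share, the 5 genes most alike, and from the fixed lists (chromosome 12 receptors, TAS2R1, taste transduction, renal genes) the highest 2 in WT and those with EZH2; further list members and the pseudogenes were named after their values were seen. Alternatives changed the score minimum, list size, window, overlap and identical lines.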

Additional observations from a re-analysis of the deposited data

How the results depend on the processing

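Of 102 values under alternative settings for 18 results, 68 stayed within the counting interval or 1.5 times of the reported value, 34 moved and 0 differences changed sign, apart from the order of 2 counts given next; with 1 library per group none has a replicate check, and the read depth that limits each list is unknown. No paired analysis was possible because each group held 1 library. Window size moved most. With gene plus 1 kb, H3K27me3 marked 2 receptor genes in WT and 3 in KO (0 WT only, 1 KO only), the reverse order of the 6 and 3 reported. EZH2 marked 1 in WT (1 in WT only) and 0 in KO (0 in KO only). The covered share of all receptor windows pooled, KO minus WT, was then -1.39 points for H3K27me3 and -0.689 for EZH2. With 5 kb this pooled difference was -2.81 for H3K27me3 (3.91% in WT and 1.10% in KO) and -0.0968 for EZH2 (0.395% and 0.298%). With 10 kb, EZH2 marked 5 in WT, 5 in WT only, and its difference was -0.313 points. With 25 kb, H3K27me3 marked 5 in KO, EZH2 marked 7 in WT and 3 in KO, with 5 in WT only, and its difference was -0.483 points. With scores of 7 or more, H3K27me3 and EZH2 marked 0 genes in KO (0 in KO only for EZH2), the EZH2 difference was -0.395 points, and the stretch had KO/WT ratios of 0.223 for H3K27me3 peaks, 0.219 for its covered length, 0.105 for EZH2 peaks and 0.146 for its covered length, with 10.5% and 5.71% of WT peaks shared. With scores of 6 or more the ratios of peaks were 0.354 and 0.252. With the WT list at the size of the KO list, H3K27me3 marked 1 gene in KO only. With at least 50% of a WT peak covered, 8.49% of H3K27me3 peaks of the stretch were shared; within 1 kb, 42.5% of H3K27me3 and 18.7% of EZH2 peaks were, and 54.5% of WT EZH2 peaks lay by H3K27me3. The cause of these shifts was not tested beyond what each setting leaves out.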
